A study of Mus musculus with 18 samples.

Results

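Liver steroid metabolism enzymes were followed in mice born from stored spermatogonial stem cells and in control mice. The set holds 10 genes, chosen by name from the 32285 genes of the count table: Hsd3b5, Hsd3b2, Hsd3b3, Hsd17b2, Srd5a1, Akr1c6, Akr1d1, Cyp17a1, Cyp4a12a and Elovl3. The choice was made with earlier results of these data known, so a larger share called among members than among all genes is no independent evidence. All 10 passed the filter on low counts, under which 13356 genes were tested. RNA came from whole livers of 3 groups of 6 mice, each liver sequenced as 1 library. Space pups and Ground pups were offspring of germline stem (GS) cells, cultured spermatogonial stem cells of the DBA/2 strain, stored in frozen state for 6 months, either aboard the International Space Station or on Earth. The thawed GS cells were transplanted into the testes of W mice, which lack their own sperm production, and these recipients were mated with C57BL/6 females. The pups were killed at 10 weeks of age. The controls were BDF1 mice, described as wild-type and born through natural mating, and their age is not given. All livers are labelled B6D2F1 and wild-type, although the GS cells of the study carried an EGFP transgene. The labels give neither litter nor parent, so relatives among the pups are possible, and p-values measure only the spread between these mice. Frozen cells that had been on the station and cells that had stayed on Earth are compared by setting Space pups against Ground pups, and both by setting each against BDF1 mice.

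Steroid hormones that reach the liver are inactivated there by oxidoreductases, which change the ring or its keto and hydroxyl groups, before conjugation and excretion. In mouse liver several of these enzymes are made at very different levels in males and females, under control of the time pattern of growth hormone release. The fatty acid enzymes Cyp4a12a and Elovl3 do not act on the steroid ring and are known for the same kind of control.

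The study states that males and females were used, and the labels do not say which library is which. In replicates 1 to 3 of the groups Xist, the RNA of the inactive X chromosome, had 0 to 187 counts and 4 Y-linked genes summed to 1822 to 2482 counts. In replicates 4 to 6 Xist had 12218 to 21557 counts and the same Y-linked genes 0 to 26. The groups were therefore compared within replicates 1 to 3 and within replicates 4 to 6, with 3 livers in each. Libraries held 15407450 to 20562351 counts. Hepatocyte markers were abundant in all libraries, and Alb alone took 17.6 to 24.1% of the counts in pups of replicates 4 to 6, 6.72 to 8.03% in BDF1 mice of those replicates and 4.47 to 6.45% in replicates 1 to 3. Serpina6 took 3.43% of the counts in Space replicate 4, 3.41% in Ground replicate 5 and 2.18% in Ground replicate 6, and at most 0.107% in each of the other libraries. Where these 3 Serpina6-rich libraries are left out, Ground pups of replicates 4 to 6 are 1 liver, replicate 4, which is taken to vary like the other groups. Markers of steroid-producing cells of the adrenal gland and gonad (7 genes) summed to 1.08 to 8.43 CPM (counts per 1000000, on TMM-scaled library sizes) and kidney markers to at most 0.33 CPM. Haploid germ cell markers reached 46.3 CPM in a single Space library of replicates 4 to 6. Whole-liver RNA cannot tell fewer cells of a type from less RNA per cell.

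Members differed between pups and BDF1 mice in replicates 4 to 6, with Cyp17a1 higher and Elovl3 lower in both pup groups, and none was called in replicates 1 to 3 or between Space and Ground pups. A gene was called where edgeR's quasi-likelihood test gave a Benjamini-Hochberg adjusted p under 0.05 over all 13356 genes. In replicates 4 to 6, Cyp17a1 was higher and Akr1d1, Elovl3 and Hsd3b2 were lower in Space pups than in BDF1 mice, 4 of 10 members, where 11.9% of all genes were called. Cyp17a1 was higher and Srd5a1, Akr1d1, Elovl3 and Cyp4a12a were lower in Ground pups than in BDF1 mice, 5 of 10 members, where 15.2% of all genes were called. The count for Space pups went to 2 without Space replicate 6 or without BDF1 replicate 6, and that for Ground pups stayed within 1.5 times without each library in turn. In replicates 1 to 3 the count was 0 of 10 for Space pups against BDF1 mice, where 4.64% of all genes were called, and 0 of 10 for Ground pups, where 1.92% were called. Akr1d1 was the single member with an unadjusted p under 0.05 in each of these contrasts of replicates 1 to 3, where 19.3% and 15.9% of all genes had such a p. For Space pups DESeq2 called 1 member (7.14% of all genes), limma voom 3 (17.7%) and the 9 libraries of the set alone 1 (8.56%). For Ground pups DESeq2 called 0 (4.6%), limma voom 0 (8.21%) and the 9 libraries 1 (4.4%). Both pup groups were compared with the same BDF1 livers, so the contrasts are not independent of each other.

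**Figure D1:**
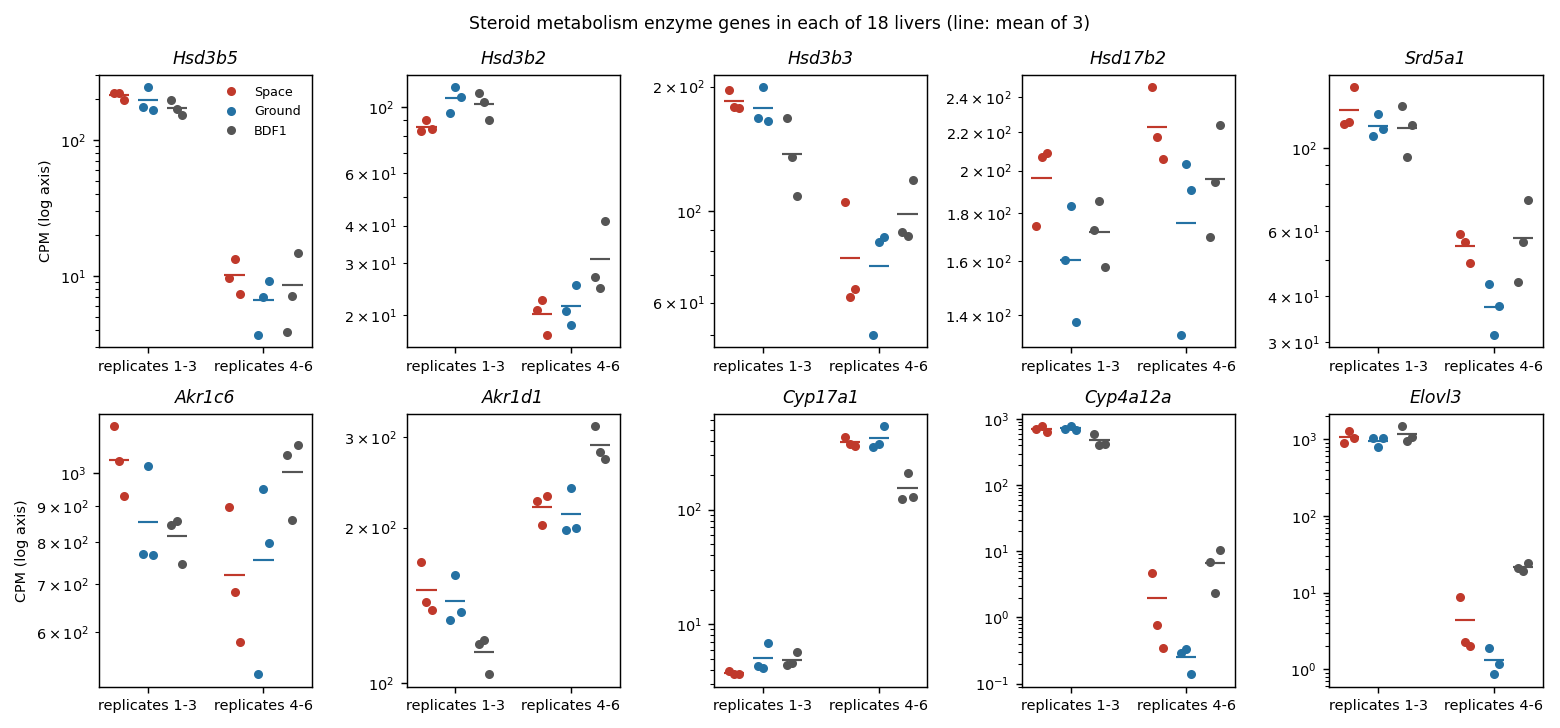
CPM of the 10 members in each liver on a log axis, by replicate set, with Space pups in red, Ground pups in blue and BDF1 mice in grey; a line marks the mean of 3 livers, and each panel has its own scale. Cyp17a1 in pups of replicates 4 to 6 sits at 354 to 535 CPM, above the BDF1 livers at 124 to 210 CPM, and Elovl3 at 0.86 to 8.82 CPM, below the BDF1 livers at 19.3 to 24.6 CPM.

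Most members differed between the replicate sets. Of 10 members, 8 differed between replicates 4 to 6 and 1 to 3 in Space pups (2 higher and 6 lower, where 21.9% of all genes were called), 8 in Ground pups (2 higher and 6 lower, with 18.3% of all genes) and 7 in BDF1 mice (2 higher and 5 lower, with 14.6% of all genes). Cyp17a1 and Akr1d1 were the members higher in replicates 4 to 6. Hsd17b2 and Akr1c6 were not called in any group by this test, and Hsd3b3 was not called in BDF1 mice (adjusted p = 0.169 by edgeR). The order of the levels changed with the set. Per kilobase of exon, Elovl3 and Akr1c6 led in replicates 1 to 3 of each group, with mean levels of 544 and 513 CPM per kb in Space pups, and their ranges overlapped in both pup groups but not in BDF1 mice. Cyp4a12a followed at 292 CPM per kb and Hsd3b5 at 138 CPM per kb in Space pups, and Cyp17a1 was last at 1.35 CPM per kb. In replicates 4 to 6 Akr1c6 led in each group, and Cyp17a1 stood next in Space pups at 140 CPM per kb and in Ground pups at 152 CPM per kb, each without overlap with Hsd17b2 below it. These levels were divided by the length of all exons of a gene, 1924 bases for Hsd17b2 and 2769 for Cyp17a1. Their transcripts have 1320 and 2403 bases, so the order of Cyp17a1 and Hsd17b2 and their lack of overlap are tied to the length chosen. In BDF1 mice of replicates 4 to 6, Hsd17b2 at 102 and Akr1d1 at 99.8 CPM per kb overlapped each other and both lay above Cyp17a1 at 55.6 CPM per kb.

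**Figure D2:**
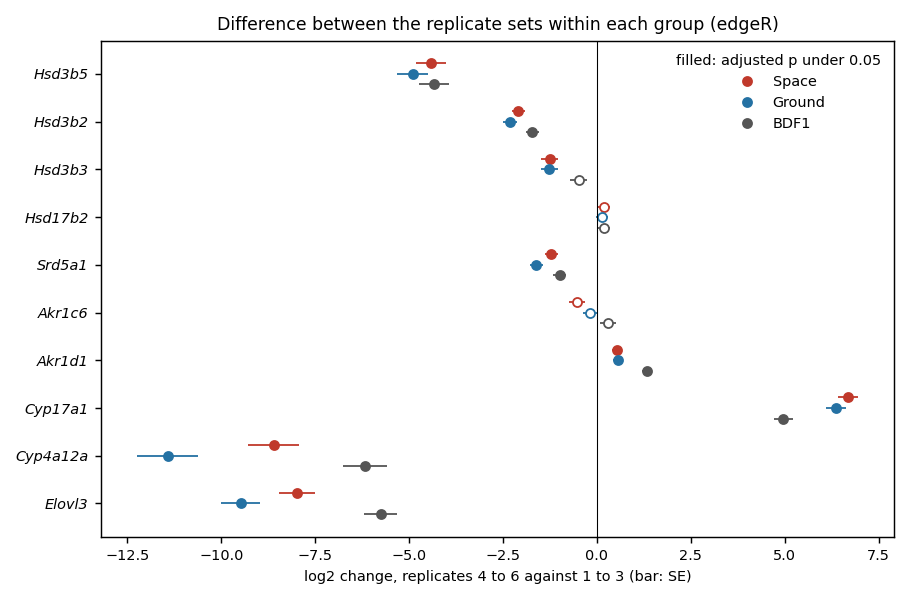
Log2 change of each member between replicates 4 to 6 and replicates 1 to 3, with its standard error, in Space pups (red), Ground pups (blue) and BDF1 mice (grey); filled points were called by edgeR. Cyp17a1 lies between 4.97 and 6.69, Elovl3 between -9.49 and -5.76 and Cyp4a12a between -11.43 and -6.18, and the points of BDF1 mice are the nearest to 0 for these 3 genes.

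The 3β-hydroxysteroid dehydrogenases Hsd3b5, Hsd3b2 and Hsd3b3 come first in the order of roles; members of this family oxidise or reduce the hydroxyl or keto group at the third carbon of the steroid ring, and Hsd3b5 is a liver form that reduces it. The genes lie side by side on the minus strand of chromosome 3 in mm10, Hsd3b5 at chr3:98618634-98630252, Hsd3b2 at chr3:98709255-98724543 and Hsd3b3 at chr3:98741523-98763127 in GENCODE M21. Their RefSeq promoter windows of the build GRCm38.p6 (250 bases before to 50 bases after the start site, 5′ to 3′ on the gene's strand) are shown because all 3 neighbouring genes were lower in replicates 4 to 6 of both pup groups. The capitals mark the longest run that Hsd3b5 shares with each of the others, 24 bases with Hsd3b3 and 19 bases with Hsd3b2. The RefSeq start of Hsd3b5 lies before the start of the GENCODE gene, so that window belongs to a different gene model.
Hsd3b5, chr3:98645485-98645784: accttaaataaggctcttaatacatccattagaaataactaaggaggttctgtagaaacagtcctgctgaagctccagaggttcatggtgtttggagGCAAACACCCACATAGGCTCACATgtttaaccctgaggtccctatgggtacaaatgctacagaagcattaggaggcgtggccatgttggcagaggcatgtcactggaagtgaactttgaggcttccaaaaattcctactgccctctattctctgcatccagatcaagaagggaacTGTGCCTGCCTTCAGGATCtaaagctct
Hsd3b2, chr3:98724494-98724793: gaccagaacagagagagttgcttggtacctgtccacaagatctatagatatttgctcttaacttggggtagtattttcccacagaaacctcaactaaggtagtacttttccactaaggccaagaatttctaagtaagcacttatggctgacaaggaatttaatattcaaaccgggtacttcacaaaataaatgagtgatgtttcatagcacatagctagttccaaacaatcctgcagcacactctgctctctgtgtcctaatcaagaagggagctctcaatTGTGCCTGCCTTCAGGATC
Hsd3b3, chr3:98763079-98763378: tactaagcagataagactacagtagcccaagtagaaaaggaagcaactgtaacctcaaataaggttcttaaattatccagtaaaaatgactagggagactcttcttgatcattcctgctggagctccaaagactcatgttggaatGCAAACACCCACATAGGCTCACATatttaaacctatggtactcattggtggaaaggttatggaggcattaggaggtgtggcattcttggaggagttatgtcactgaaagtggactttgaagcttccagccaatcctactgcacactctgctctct
In a global alignment 54.7% of the columns were identical between the windows of Hsd3b5 and Hsd3b3, 50.9% between Hsd3b5 and Hsd3b2, and 46.7% between Hsd3b2 and Hsd3b3. The run shared by Hsd3b5 and Hsd3b2 lies after both start sites, and the run shared by Hsd3b5 and Hsd3b3 before them.

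Hsd3b5 was measured at 224, 222 and 197 CPM in Space replicates 1 to 3, at 177, 247 and 166 CPM in Ground replicates 1 to 3 and at 198, 169 and 155 CPM in BDF1 replicates 1 to 3. The values of replicates 4 to 6 were 9.60, 13.3 and 7.40 CPM in Space pups, 3.68, 6.98 and 9.19 CPM in Ground pups and 3.89, 7.12 and 14.9 CPM in BDF1 mice. The groups overlapped within each set, while no liver of replicates 4 to 6 came near the lowest of replicates 1 to 3. The difference between the sets was a log2 change of -4.41 ± 0.40 (SE) in Space pups, -4.90 ± 0.41 in Ground pups and -4.33 ± 0.40 in BDF1 mice, with an adjusted p of at most 1.86e-06 by edgeR.

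Hsd3b2 shared the fall at a smaller size. It was measured at 82.9, 90.5 and 84.2 CPM in Space pups, 95.4, 117 and 108 CPM in Ground pups and 111, 104 and 90.7 CPM in BDF1 mice of replicates 1 to 3. Replicates 4 to 6 gave 20.9, 22.5 and 17.2 CPM in Space pups, 20.6, 18.6 and 25.4 CPM in Ground pups and 26.8, 24.6 and 41.5 CPM in BDF1 mice. All Space livers of replicates 4 to 6 were below all BDF1 livers, 1.54-fold in the mean (log2 change -0.62 ± 0.18 SE, adjusted p = 0.0316 by edgeR), and Ground pups overlapped with them (log2 change -0.53 ± 0.17, adjusted p = 0.0515). The call for Space pups was lost without Space replicate 4 (adjusted p = 0.0702), without Space replicate 6 (0.0904) and without BDF1 replicate 6, the highest liver (log2 change -0.35, adjusted p = 0.133). It was also lost by limma voom (0.0523) and in the 9 libraries of the set alone (0.110). Ground pups were called lower in 6 of 10 alternative settings, with adjusted p-values of 0.000517 to 0.0496.

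Hsd3b3 was at 197, 178 and 178 CPM in Space pups, 168, 200 and 165 CPM in Ground pups and 168, 135 and 109 CPM in BDF1 mice of replicates 1 to 3, and at 105, 61.9 and 64.6 CPM, 50.1, 84.0 and 86.6 CPM, and 88.7, 86.9 and 119 CPM in replicates 4 to 6 of the same groups. No pair of groups was called apart in either set by edgeR. Scaling by total counts called Hsd3b3 lower than in BDF1 mice in both pup groups of replicates 4 to 6 (log2 changes -0.77 and -0.93, adjusted p = 0.00457 and 0.000843). So did the fit without the 3 Serpina6-rich libraries (-0.64 and -0.97, adjusted p = 0.0317 and 0.0205), in which the single Ground liver left was the lowest of the 3. In replicates 1 to 3, limma voom called Space livers above those of BDF1 mice (0.50, adjusted p = 0.0289). Of the 100-base windows along its transcript 14.9% occur in another gene, mostly in Hsd3b2. For Hsd3b2 it was 7.09% of the windows, mostly in Hsd3b3, and for Hsd3b5 7.79%, all of which occur in Gm10681. Reads may therefore have been moved between Hsd3b2 and Hsd3b3, or between Hsd3b5 and Gm10681, or dropped.

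Hsd17b2, which oxidises estradiol and testosterone to their less active keto forms, had the narrowest range of the members as a ratio of highest to lowest level (chr8:117701904-117759027, plus strand). Its levels ran from 133 to 246 CPM over all 18 livers. Space livers of replicates 4 to 6 at 206, 217 and 246 CPM were all above the Ground livers of that set at 133, 191 and 203 CPM, with a log2 difference of 0.34 ± 0.16 (SE) and an adjusted p of 0.344 by edgeR. The sign of its small change in Space pups against BDF1 mice of replicates 4 to 6 depends on the scaling: the log2 change was 0.19 with TMM and -0.22 with total counts, where the median of all genes moved by -0.39. In Ground pups of replicates 4 to 6 the change was -0.16 ± 0.16 (adjusted p = 0.536 by edgeR) with TMM. With total counts Ground pups were called lower.

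The 5α-reductase Srd5a1, which reduces testosterone and other steroids at the double bond of the ring, lies at chr13:69573449-69611442 on the minus strand. It was at 117, 118 and 146 CPM in Space pups, 108, 124 and 113 CPM in Ground pups and 130, 94.8 and 116 CPM in BDF1 mice of replicates 1 to 3. The level in replicates 4 to 6 was 58.7, 56.0 and 49.0 CPM in Space pups, 43.1, 31.4 and 37.7 CPM in Ground pups and 43.6, 56.1 and 72.8 CPM in BDF1 mice. All Ground livers of replicates 4 to 6 were below all BDF1 livers, 1.54-fold in the mean (log2 change -0.62 ± 0.17 SE, adjusted p = 0.0242 by edgeR), and below all Space livers, which were not called apart (log2 difference 0.54 ± 0.17, adjusted p = 0.206). Space pups and BDF1 mice overlapped (log2 change -0.08 ± 0.17, adjusted p = 0.811). The call for Ground pups was lost without Ground replicate 5 (adjusted p = 0.0966), Ground replicate 6 (0.0627), BDF1 replicate 5 (0.0610) or BDF1 replicate 6, without which the log2 change went to -0.41 (adjusted p = 0.128). It was also lost in the 9 libraries of the set alone (0.0791). Of the 100-base windows of its transcript 14.9% occur in Gm17108.

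The 5β-reductase Akr1d1 reduces the same double bond in the other orientation and serves bile acid synthesis as well. It was higher in replicates 4 to 6 than in replicates 1 to 3 of every group, and less so in pups. With total counts this difference was called neither in Space nor in Ground pups (log2 changes 0.24 and 0.13, adjusted p = 0.203 and 0.479). Without the 3 Serpina6-rich libraries, with 1 Ground liver left, it was not called in Ground pups (0.46, adjusted p = 0.0733). Its RefSeq promoter window is shown because it holds AGGTCA, a binding half-site of nuclear receptors, on the other strand at 232 and 210 bases before the start site; the capitals mark both places, where the plus strand reads TGACCT.
Akr1d1, chr6:37529923-37530222: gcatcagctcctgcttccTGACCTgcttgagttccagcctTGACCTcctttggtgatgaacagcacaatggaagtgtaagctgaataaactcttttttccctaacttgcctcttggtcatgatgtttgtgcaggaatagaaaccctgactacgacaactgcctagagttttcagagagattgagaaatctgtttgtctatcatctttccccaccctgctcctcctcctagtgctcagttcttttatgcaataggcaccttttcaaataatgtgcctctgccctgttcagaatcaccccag
AGGTCA is found on either strand in 16.25% of 32544 RefSeq windows of this length. Among the 6 members with a window (the 3 Hsd3b genes, Srd5a1, Akr1c6 and Akr1d1) it was found in no other. TTCNNNGAA, the form of site bound by STAT5, was found in none of the 6 and in 8.33% of all windows, and TATAAA only in Akr1c6, at 164 bases before the start, and in 13.57% of all windows; both strands were searched. The gene lies at chr6:37530173-37568815 on the plus strand.

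Akr1d1 was measured at 172, 144 and 138 CPM in Space pups, 132, 162 and 138 CPM in Ground pups and 119, 121 and 104 CPM in BDF1 mice of replicates 1 to 3, where all livers of both pup groups were above all BDF1 livers. The order was turned in replicates 4 to 6, with 225, 203 and 230 CPM in Space pups, 198, 239 and 200 CPM in Ground pups and 314, 280 and 272 CPM in BDF1 mice. The log2 change against BDF1 mice was 0.40 ± 0.12 (SE, adjusted p = 0.0748 by edgeR) in Space pups and 0.33 ± 0.12 (adjusted p = 0.188) in Ground pups of replicates 1 to 3, and -0.40 ± 0.12 (adjusted p = 0.0439) and -0.44 ± 0.12 (adjusted p = 0.0215) in replicates 4 to 6. The calls of replicates 4 to 6 stood close to the threshold. That of Space pups was lost without any single library of Space replicates 2 to 6 or BDF1 replicates 1, 2, 4, 5 and 6, with adjusted p-values of 0.0511 to 0.159, the highest without BDF1 replicate 4. That of Ground pups was lost without Ground replicate 4 (adjusted p = 0.0545), Ground replicate 6 (0.0755), BDF1 replicate 4 (0.0872) or BDF1 replicate 5 (0.0540). In the 9 libraries of the set alone neither was called (0.105 and 0.0699), and with no filter Space pups were not (0.0617). Space pups of replicates 1 to 3 were called higher by DESeq2 (0.0211) and limma voom (0.00533).

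Akr1c6, an aldo-keto reductase of mouse liver that acts on the keto group of androgens and estrogens, was the most abundant member per kilobase in replicates 4 to 6 of each group (chr13:4434306-4457877, plus strand). It was at 1161, 1040 and 928 CPM in Space pups, 772, 1022 and 769 CPM in Ground pups and 845, 858 and 747 CPM in BDF1 mice of replicates 1 to 3. Replicates 4 to 6 had 898, 683 and 581 CPM in Space pups, 524, 949 and 797 CPM in Ground pups and 1059, 859 and 1093 CPM in BDF1 mice. The groups overlapped in replicates 4 to 6, and the log2 change against BDF1 mice was -0.48 ± 0.20 (SE, adjusted p = 0.133 by edgeR) in Space pups and -0.41 ± 0.20 (adjusted p = 0.193) in Ground pups. With total counts both were called. Without the 3 Serpina6-rich libraries Space pups were called at -0.67 (adjusted p = 0.0154) and Ground pups at -0.93 (0.0156), the last with only the lowest Ground liver left. Limma voom called Space pups (-0.53, 0.0287). Between the replicate sets of Space pups Akr1c6 was called lower in 4 of 8 alternative settings (log2 change -0.53 by DESeq2, adjusted p = 0.0410) and without Space replicate 4 (-0.72, 0.0278) or Ground replicate 4 (-0.53, 0.0317). In Ground pups it was called lower in 2 of 8, with total counts and with the single Ground liver left without the 3 Serpina6-rich libraries.

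Cyp17a1, the 17α-hydroxylase that serves androgen synthesis in the mouse gonad, was higher in pups than in BDF1 mice of replicates 4 to 6. It lies at chr19:46667165-46673172 on the minus strand. In replicates 1 to 3 it was near the bottom of the scale, at 3.94, 3.65 and 3.66 CPM in Space pups, 4.29, 4.17 and 6.83 CPM in Ground pups and 4.45, 4.61 and 5.69 CPM in BDF1 mice. In replicates 4 to 6 it was at 429, 371 and 362 CPM in Space pups, 354, 377 and 535 CPM in Ground pups and 124, 210 and 128 CPM in BDF1 mice. All 6 pups were above all 3 BDF1 mice. The mean level of Space pups was 2.51 times that of BDF1 mice (log2 change 1.33 ± 0.21 SE, adjusted p = 0.00138 by edgeR) and that of Ground pups 2.74 times (log2 change 1.45 ± 0.21, adjusted p = 0.000549), and Space and Ground pups overlapped (log2 difference -0.12 ± 0.21, adjusted p = 0.834). Both calls held in all 10 alternative settings and without each of the 18 libraries in turn, with log2 changes between 0.91 and 1.61 in Space pups and between 0.94 and 1.75 in Ground pups. The 7 markers of steroid-producing cells summed to 1.08 to 3.30 CPM in pups and 1.48 to 2.12 CPM in BDF1 mice of replicates 4 to 6. Hsd3b1, a gonadal and adrenal gene outside that list, was at 1.69 to 13.8 CPM in Space pups, 6.36 to 8.62 CPM in Ground pups and 0.20 to 2.19 CPM in BDF1 mice of those replicates. Their part in the Cyp17a1 difference was not tested.

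Elovl3, an elongase of saturated and monounsaturated very long-chain fatty acids, and Cyp4a12a, an omega-hydroxylase of fatty acids such as arachidonic acid, were the members that fell furthest between the replicate sets. Elovl3 (chr19:46131897-46135694, plus strand) was at 900, 1297 and 1028 CPM in Space pups, 1028, 795 and 1025 CPM in Ground pups and 1480, 957 and 1083 CPM in BDF1 mice of replicates 1 to 3. Livers of replicates 4 to 6 had 8.82, 2.29 and 2.02 CPM in Space pups, 1.87, 0.86 and 1.17 CPM in Ground pups and 21.2, 19.3 and 24.6 CPM in BDF1 mice. The 3 groups did not overlap in replicates 4 to 6, with the Ground livers lowest and the BDF1 livers highest. Elovl3 was lower than in BDF1 mice in Space pups, 4.95-fold in the mean (log2 change -2.35 ± 0.40 SE, adjusted p = 0.00208 by edgeR), and in Ground pups, 16.7-fold (log2 change -4.04 ± 0.45, adjusted p = 8.06e-05). Both calls held in all 10 alternative settings and without each library in turn, and the size for Space pups grew to a log2 change of -3.33 when their replicate 4 was left out. Space and Ground pups were not called apart (log2 difference 1.69 ± 0.47, adjusted p = 0.196). Without Space replicate 4 the difference was 0.71 (adjusted p = 0.283).

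Cyp4a12a (chr4:115299046-115332815, plus strand) was at 705, 772 and 647 CPM in Space pups, 715, 777 and 684 CPM in Ground pups and 593, 406 and 424 CPM in BDF1 mice of replicates 1 to 3. All livers of both pup groups were above the BDF1 livers there, without a call (log2 change 0.58 ± 0.46 SE, adjusted p = 0.539, and 0.61 ± 0.46, adjusted p = 0.556, by edgeR over 18 libraries), and with a call when the 9 libraries of replicates 1 to 3 were fitted alone (adjusted p = 0.0347 and 0.0402). The level fell in replicates 4 to 6 to 4.68, 0.78 and 0.35 CPM in Space pups, 0.29, 0.33 and 0.14 CPM in Ground pups and 6.94, 2.33 and 10.4 CPM in BDF1 mice. The Ground values rest on 5, 5 and 2 counts. Cyp4a12a was lower in Ground pups than in BDF1 mice (log2 change -4.63 ± 0.80, adjusted p = 0.00148), by 24.9-fold in summed counts with a 95% exact interval of 14.1 to 48.6 that covers counting error only. Limma voom did not call this change (-4.18, adjusted p = 0.0565). The log2 change of Space pups was -1.85 ± 0.59 with an adjusted p of 0.0511. Without Space replicate 4, the highest of them, it was -3.52 with an adjusted p of 0.00229. It was also called without Ground replicate 4 (0.0494) or BDF1 replicate 5 (0.0291), and by DESeq2 (0.0459), limma voom (0.0294), with total counts (0.00631) and with no filter (0.0224). Space against Ground pups gave a log2 difference of 2.78 ± 0.93 (adjusted p = 0.226), which DESeq2 called (adjusted p = 0.0226). Without Space replicate 4 the difference by edgeR was 1.11 (adjusted p = 0.548). Of the 100-base windows of its transcript 35.8% occur in Cyp4a12b, so the counts of the pair are uncertain.

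Counts of Y-linked genes moved with these low levels. The 4 Y-linked genes of replicates 4 to 6 summed to 10, 0 and 0 counts in Space pups, 0, 0 and 0 in Ground pups and 10, 5 and 26 in BDF1 mice. Set against the mean of the same group in replicates 1 to 3, these were 0.653% in Space replicate 4 and 0.429%, 0.195% and 1.14% in BDF1 replicates 4, 5 and 6. On the same scale Cyp4a12a stood at 0.662% in Space replicate 4 and at 1.46%, 0.491% and 2.19% in BDF1 replicates 4 to 6, and Elovl3 at 0.821% and at 1.80%, 1.65% and 2.09%. Ddx3y, 1 of the 4 Y-linked genes, was itself called lower by edgeR in Ground pups than in BDF1 mice of replicates 4 to 6. The interaction of Ground pups called it lower as well. Of all genes, 15.2% and 2.74% were called in these contrasts, which also called Elovl3 and Cyp4a12a. Whether reads of other libraries had a part in these levels and calls was not tested.

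**Figure D3:**
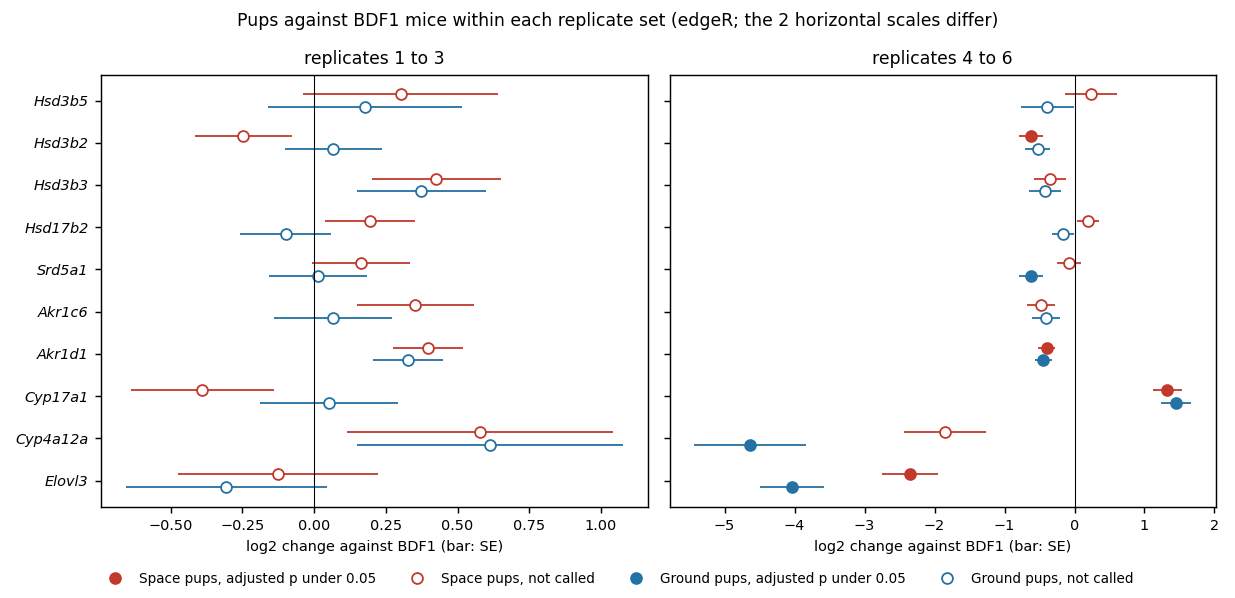
Log2 change of each member in Space pups (red) and Ground pups (blue) against BDF1 mice, with its standard error, in replicates 1 to 3 and replicates 4 to 6 on different horizontal scales; filled points had an adjusted p under 0.05 by edgeR. No point is filled in replicates 1 to 3, and in replicates 4 to 6 Cyp17a1 lies at 1.33 and 1.45 and Elovl3 at -2.35 and -4.04.

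Space and Ground pups were compared with each other in the same way. No member was called in replicates 1 to 3, where 0.00749% of all genes were called, nor in replicates 4 to 6, where 0.0225% were called. At an unadjusted p under 0.05 the edgeR test gave 0 members in replicates 1 to 3 and 4 in replicates 4 to 6 (Hsd17b2, Srd5a1, Cyp4a12a and Elovl3), all with the higher level in Space pups, where 9.67% and 13.9% of all genes had such a p. DESeq2 called 0 and 1, with 0.328% and 1.39% of all genes. The median log2 difference of the 10 members was 0.10 in replicates 1 to 3 and 0.21 in replicates 4 to 6, against -0.01 in both over all genes.

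Whether the difference from BDF1 mice was itself different in replicates 4 to 6 was tested as an interaction. For Space pups 3 members were called, Cyp17a1 upward and Akr1d1 and Elovl3 downward, where 3.19% of all genes were called. For Ground pups 4 members were called, Cyp17a1 upward and Akr1d1, Elovl3 and Cyp4a12a downward, where 2.74% of all genes were called. For Space against Ground pups 0 members were called, 2 at an unadjusted p under 0.05, and 0% of all genes were called by edgeR, with 1038 genes at an unadjusted p under 0.05. The interaction was -3.73 ± 0.57 (SE, log2, adjusted p = 0.00431) for Elovl3 and -5.25 ± 0.94 (adjusted p = 0.00898) for Cyp4a12a in Ground pups, and 1.72 ± 0.33 (adjusted p = 0.00865) for Cyp17a1 in Space pups. The count for Space pups went to 1 without BDF1 replicate 3, and that for Ground pups to 2 without Ground replicate 2, Ground replicate 6, BDF1 replicate 3 or BDF1 replicate 4.

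Other genes of steroid metabolism were taken from a list of 50, of which 47 were in the table and 37 were tested. None was called between Space and Ground pups in either set, and the shares of all genes called given above hold for these counts too. Against BDF1 mice of replicates 1 to 3 the test called 0 of them for Space pups and 1 for Ground pups (1.92% of all genes), the 17β-hydroxysteroid dehydrogenase Hsd17b7, which also serves cholesterol synthesis and was lower (log2 change -0.89 ± 0.19 SE, adjusted p = 0.0266 by edgeR). The call was lost without any of Ground replicates 1 to 3 or BDF1 replicates 2 and 3 (0.0576 to 0.123) and with total counts (0.0680). Against those of replicates 4 to 6, 8 were higher and 1 was lower in Space pups, where 11.9% of all genes were called, and 8 were higher and 8 lower in Ground pups, where 15.2% were called, with a median log2 change over the 37 genes of 0.17 and -0.07 against 0.01 over all genes. Hsd11b1, which turns inactive 11-keto glucocorticoids into active ones, was at 1083 to 1577 CPM in Space pups and 967 to 1532 CPM in Ground pups, above the BDF1 livers at 600 to 732 CPM (log2 changes 0.92 ± 0.18 and 0.97 ± 0.18, adjusted p = 0.00400 and 0.00213). H6pd, which supplies that enzyme with NADPH inside the endoplasmic reticulum, was at 435 to 554 CPM and 503 to 761 CPM against 225 to 279 CPM (log2 changes 1.04 ± 0.17 and 1.33 ± 0.17, adjusted p = 0.00145 and 0.000204). Both genes of this pair were thus higher in pups of replicates 4 to 6, with no overlap with the BDF1 livers, and their calls held in all 10 alternative settings and without each library in turn. Hsd17b6, a dehydrogenase of androgen metabolites, was higher too, with a log2 change of 0.85 ± 0.26 in Space pups (adjusted p = 0.0446) and of 1.04 ± 0.26 in Ground pups (adjusted p = 0.0140). The call of Space pups was lost without any of Space replicates 1 to 5, Ground replicate 1 or BDF1 replicates 1 to 6 (0.0502 to 0.207). It was also lost with total counts (log2 change 0.43, adjusted p = 0.0890), in the 9 libraries of the set alone (0.144) and without the 3 Serpina6-rich libraries (0.0562). That of Ground pups was lost without Ground replicate 6 or BDF1 replicate 5 (0.0660 each), in the 9 libraries alone (0.0738) and in the single Ground liver left without the 3 Serpina6-rich libraries (log2 change 0.26, adjusted p = 0.520). Space pups also had more RNA of Sult1a1, a sulfotransferase (log2 change 0.91, adjusted p = 0.00956), and of Cyb5r3, a reductase that feeds electrons to cytochrome b5 (0.79, adjusted p = 0.0265). With total counts neither was called (0.0882 and 0.133), nor in the 9 libraries alone (0.0661 and 0.0708). That of Cyb5r3 was also lost without Space replicate 4, BDF1 replicate 4 or BDF1 replicate 5 (0.0728 to 0.120) and without the 3 Serpina6-rich libraries (0.0688). Cyb5r3 was higher in Ground pups as well (0.74, adjusted p = 0.0295), but not without Ground replicate 5 or BDF1 replicate 4 or 5 (0.0662 to 0.127) or in the 9 libraries alone (0.0683). Its Ground log2 change was 0.25 with total counts (adjusted p = 0.284) and 0.51 in the 1 Ground liver left without the 3 Serpina6-rich libraries (0.223). Hsd17b7 was lower in Ground pups (log2 change -1.05 ± 0.19, adjusted p = 0.00230) and in Space pups (-0.62 ± 0.19, adjusted p = 0.0447). The latter was not called when any one was left out of Space replicates 1 to 6, Ground replicates 1 and 3 or BDF1 replicates 3 to 5 (0.0501 to 0.256), nor in the 9 libraries alone (0.131) or without the 3 Serpina6-rich libraries (0.128). In Ground pups Hsd3b1, the form of adrenal gland and gonad, was higher (2.63 ± 0.71, adjusted p = 0.0209) at only 6.36 to 8.62 CPM against 0.20 to 2.19 CPM, a call lost without BDF1 replicate 4 (0.0726) or BDF1 replicate 6 (0.0646), by DESeq2 (0.0546) and in the 9 libraries alone (0.0857).

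**Figure D4:**
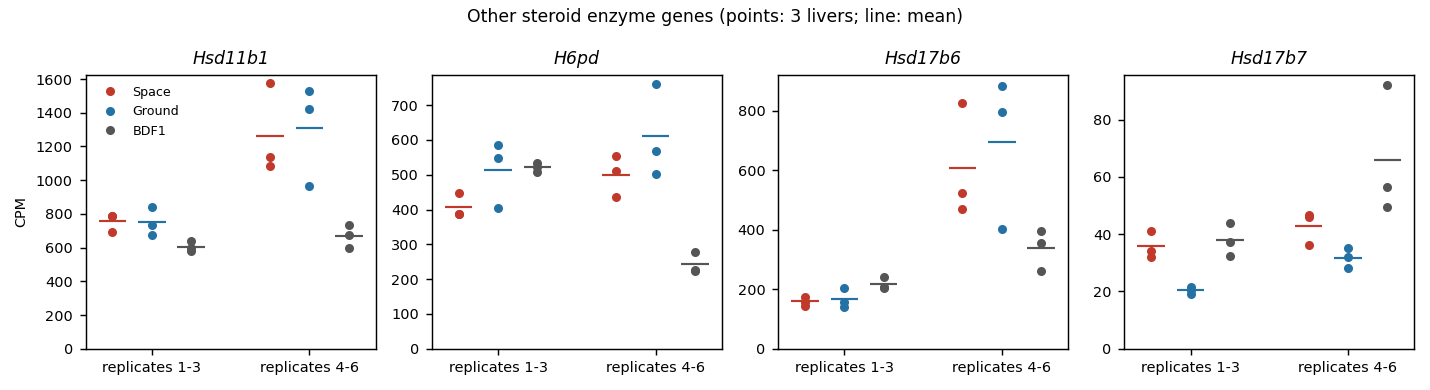
CPM of Hsd11b1, H6pd, Hsd17b6 and Hsd17b7 by group and replicate set on axes that start at 0; points are single livers and lines the mean of 3. Hsd11b1 and H6pd of both pup groups lie above the BDF1 livers in replicates 4 to 6, and H6pd in BDF1 mice falls from 509 to 535 CPM in replicates 1 to 3 to 225 to 279 CPM in replicates 4 to 6.

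Relatives and known regulators of the members were read beside them. Of 7 other Cyp4a genes, 5 were tested: Cyp4a31 was higher in replicates 4 to 6 of both pup groups than in BDF1 mice (log2 changes 3.40 ± 0.72 SE and 3.86 ± 0.73, adjusted p = 0.00713 and 0.00266 by edgeR), opposite in sign to Cyp4a12a, and Cyp4a14 was lower in Space pups of replicates 1 to 3 (-3.51 ± 0.80, adjusted p = 0.0201), a call lost without Space replicate 2 or 3 or BDF1 replicate 2 or 3 (0.0620 to 0.10). Of 6 other Elovl genes, 4 were tested, and none was called between pups and BDF1 mice in replicates 4 to 6, with 11.9% and 15.2% of all genes called. In replicates 1 to 3 the elongase Elovl6 was higher in Space pups (2.35 ± 0.49, adjusted p = 0.0130) and Elovl2 lower in Ground pups (-0.80 ± 0.19, adjusted p = 0.0397). Elovl6 was not called without Space replicate 3 or BDF1 replicate 1, 2 or 3 (0.0549 to 0.0632), nor Elovl2 without any one of Space or Ground replicates 1 to 3 or BDF1 replicates 1 to 6 (0.0516 to 0.16). Among 15 regulators, the drug-sensing nuclear receptor Nr1i3 was higher in replicates 4 to 6 of both pup groups (1.04 ± 0.29 and 1.22 ± 0.29, adjusted p = 0.0279 and 0.00994). Space pups lost this call without Space replicate 5 or BDF1 replicate 4, 5 or 6 (0.0516 to 0.116) and Ground pups without Ground replicate 6 (0.0565). Neither total counts (log2 change 0.66, adjusted p = 0.0838) nor the 9 libraries alone (0.0889) gave the call of Space pups. The related receptor Nr1i2 stood above BDF1 mice in Space livers of replicates 1 to 3 (0.78 ± 0.14, adjusted p = 0.00687) and 4 to 6 (0.77 ± 0.14, adjusted p = 0.00387), where it was 0.37 and not called with total counts (0.0540). Nr0b2, a receptor that represses bile acid synthesis genes, was lower in Ground pups than in BDF1 mice of replicates 4 to 6 (-2.55 ± 0.29, adjusted p = 8.06e-05) and higher in Space than in Ground pups (1.87 ± 0.29, adjusted p = 0.0279). This last call was lost by limma voom (0.0760), in the 9 libraries of the set alone (0.413) and without any of Space replicates 2, 5 and 6, Ground replicates 1, 5 and 6 or BDF1 replicates 3 and 5 (0.0518 to 0.172). The growth hormone receptor Ghr was higher in Ground pups of replicates 4 to 6 (2.39 ± 0.70, adjusted p = 0.0306), where its values ran from 446 to 4094 CPM. That call was lost without Ground replicate 5 or 6 or BDF1 replicate 4, 5 or 6 (0.0622 to 0.136) and in the 9 libraries alone (0.135), and the log2 change was 0.033 in the single Ground liver left without the 3 Serpina6-rich libraries (adjusted p = 0.922). Cux2, a repressor of genes of the male pattern, was higher in replicates 4 to 6 than in 1 to 3 in Space pups, Ground pups and BDF1 mice (log2 changes 7.65, 8.23 and 5.68, adjusted p = 0.000440, 0.000166 and 0.00268). Stat5a, a signal carrier of growth hormone, was lower in Space pups than in BDF1 mice of replicates 1 to 3 (-0.95 ± 0.15, adjusted p = 0.00241). This difference was itself different in replicates 4 to 6 (interaction 1.05 ± 0.21, adjusted p = 0.0124), though not with total counts (0.79, adjusted p = 0.0665). Its relative Stat5b was not called in any comparison of pups with BDF1 mice.

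Clock genes differed between the groups as well, and their part in the members' differences was not tested. Of 15 tested, 7 were higher in Space pups and 3 in Ground pups than in BDF1 mice of replicates 1 to 3, with 4.64% and 1.92% of all genes called. In replicates 4 to 6, 2 were higher and 1 was lower in Space pups, and 2 were higher and 2 lower in Ground pups, with 11.9% and 15.2% of all genes called. Between replicates 4 to 6 and 1 to 3 of BDF1 mice 8 were higher and 5 lower, with 14.6% of all genes called. In Space pups 5 were higher and 4 lower (21.9% of all genes), and in Ground pups 6 were higher and 6 lower (18.3%). Alb differed between the groups too: it was higher in pups than in BDF1 mice of replicates 4 to 6, with log2 changes of 1.75 ± 0.25 (SE) and 2.04 ± 0.25 (adjusted p = 0.000753 and 0.000174 by edgeR), and the sum of 6 hepatocyte markers was 212600 to 371600 CPM in pups against 71470 to 92630 CPM in BDF1 mice. Of the 6 only Alb and Apoa1 were called in these contrasts, and the median log2 change of the list was 0.55 and 0.66. The sum of 4 erythroid markers was 97.3 to 684 CPM in those pups and 31.6 to 83.1 CPM in those BDF1 mice. Of 4 markers each of bile duct, Kupffer, endothelial and stellate cells, Clec4f was called higher and Lrat lower in Space pups, and Stab2 higher and Sox9 lower in Ground pups of replicates 4 to 6 (log2 changes 0.95, -1.07, 1.03 and -0.97). The pancreas marker Cela1, which was also among the genes most like Cyp4a12a, was lower in both pup groups (-1.29 and -1.95). It had 94 to 949 counts a library, while the other 4 pancreas markers, Cpa1, Prss2, Pnlip and Ctrb1, had 0 to 3 counts in every library. Stab2 and Cela1 were called without each library in turn (Stab2 not without the 3 Serpina6-rich libraries together, adjusted p = 0.0598), while Clec4f, Lrat and Sox9 were called in 11, 7 and 8 of those 18 fits and in 6, 7 and 6 of the 10 alternative settings. Without Space replicate 4 and Ground replicates 5 and 6, the libraries rich in Serpina6, the Ground values rest on 1 liver. The calls of Cyp17a1 and Elovl3 then stood in both pup groups, that of Cyp4a12a was gained in Space pups (adjusted p = 0.00247), and those of Hsd3b3 and Akr1c6 were gained in both. Those of Srd5a1 in Ground pups (adjusted p = 0.335) and of Akr1d1 in Space pups (0.0538) and Ground pups (0.0621) were lost.

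The genes whose levels most resembled a member's over the 18 livers, after the mean of each replicate set was taken away, were searched among 11734 genes as a description. Elovl3 was closest to Mup14 (r = 0.95), Cyp4a12a (0.91) and Cyp27a1 (0.90), and Cyp4a12a to Elovl3, Ddx3y (0.91) and Cela1 (0.90). In replicates 4 to 6 Cyp4a12a had 2 to 206 counts and the 4 Y-linked genes together 0 to 26. The r values of Cyp4a12a and Ddx3y thus rest in part on few counts. Cyp17a1 was closest to Cyp3a44 (0.90), Phf23 (0.89) and Tnfrsf12a (0.89), and its own r was -0.77 with Elovl3 and -0.75 with Cyp4a12a. Hsd3b3 was closest to Tat (0.89), Hsd17b2 to Pdzd11 (0.92), Akr1c6 to Apol7a (0.91) and Hsd3b5 to Mrpl42 (0.89). The livers share their groups and 3 of them the high Serpina6 level, so they are not independent points.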

How the data were processed

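Liver RNA of 18 mice was measured with stranded mRNA libraries. The authors deposited a table of unnormalized read counts with 32285 genes. GENCODE M21 holds the identifiers of 32235 of these, and 10671 were at 0 throughout. The submitters' processing notes name bcl2fastq 2.20, cutadapt 4.6, HISAT2 2.2.1, HTSeq 2.0.2 and the build mm10; the strand setting, and how reads matching several genes were handled, are not given in the sources used here, so overlapping genes and near-identical copies are uncertain.

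Groups and replicate numbers came from the labels. After filterByExpr and TMM scaling, edgeR 4.0.16 under R 4.3.3 was used to fit 1 mean for each group and replicate set over all 18 libraries, and 12 contrasts were tested with the quasi-likelihood test and Benjamini-Hochberg adjustment over 13356 genes. The standard error of a log2 change was derived from the F statistic, as the size of the change divided by the root of F. CPM used TMM-scaled sizes, log2 CPM a prior count of 2. Totals of 15407450 to 20562351 counts limit low genes: 3 counts correspond to 0.134 to 0.234 CPM. No pair of libraries of 1 group and set agreed within sampling noise. Code was tested on simulated data with 200 changed genes. Alternatives were limma 3.58.1 voom with quality weights, DESeq2 1.42.0, edgeR with the size factors of DESeq2, total counts, removal of the 10 most abundant genes, no filter, a mean of at least 1 CPM, the 9 libraries of a set alone, a replicate block, other thresholds and sets of libraries.

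The members and gene lists were chosen with earlier results of these data known. Beside the members, up to 5 called genes of the wider steroid list with a mean of at least 1 CPM and the largest log2 change were named in each within-set comparison, and the 3 genes most like a member. Genes named from the Cyp4a, Elovl, regulator, clock and marker lists were chosen after their values were seen.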

Additional observations from a re-analysis of the deposited data

Results flagged for a closer look

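In 7 cases the difference of a pup group from BDF1 mice was itself different between replicates 4 to 6 and 1 to 3, by the interaction test of edgeR with Benjamini-Hochberg adjustment. In Space pups the interaction was 1.72 (log2, adjusted p = 0.00865) for Cyp17a1, -0.79 (0.0184) for Akr1d1 and -2.22 (0.0308) for Elovl3. In Ground pups it was 1.40 (0.0275) for Cyp17a1, -0.77 (0.0243) for Akr1d1, -3.73 (0.00431) for Elovl3 and -5.25 (0.00898) for Cyp4a12a. For Akr1d1 the order was opposite in the sets without overlap: all 6 pups were above the BDF1 livers in replicates 1 to 3 and all 6 below them in replicates 4 to 6. Cyp4a12a showed the same in Ground pups, while for Space pups its livers overlapped with BDF1 mice in replicates 4 to 6.

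These tests differed in how far they rested on single livers. The interactions of Cyp17a1 in Space pups and of Elovl3 and Cyp4a12a in Ground pups were called without each library in turn, and that of Cyp4a12a was not called by limma voom (adjusted p = 0.0606). The interaction of Elovl3 in Space pups was lost without Space replicate 2, 3, 5 or 6 or BDF1 replicate 2, 3, 4, 5 or 6, with adjusted p-values of 0.0552 to 0.0821. That of Cyp17a1 in Ground pups was lost without Ground replicate 1, 2 or 6 or BDF1 replicate 2, 3, 4 or 6 (0.0556 to 0.0853), with total counts (0.0639) and without the 3 Serpina6-rich libraries together, with 1 Ground liver left (0.109). That of Akr1d1 was lost in Space pups without Space replicate 1 (0.0598) or BDF1 replicate 3 (0.0600), and in Ground pups without Ground replicate 2 or 6 or BDF1 replicate 3, 4 or 5 (0.0508 to 0.0862).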

How the results depend on the processing

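Of 3270 values recomputed under an alternative, 3060 kept their direction and side of the threshold, 66 lost a call, 64 gained one and 80 changed sign; except for the construction of total counts, the cause was not tested. Scaling by total counts moved the median of all genes by -0.39 in Space pups and -0.46 in Ground pups against BDF1 mice of replicates 4 to 6, and there it called 7 and 10 members, against 4 and 5 with TMM, and 37.3% and 45.9% of all genes, 4641 and 5734 of them lower. In the interactions of Space and Ground pups total counts called 6 and 7 members, against 3 and 4, with 4.04% and 11.2% of all genes. The 9 libraries of a set alone gave 1 call in replicates 1 to 3 for each pup group (8.56% and 4.4% of all genes), and 2 and 3 calls in replicates 4 to 6 for Space and Ground pups (4.39% and 6.89%). In Space pups of replicates 1 to 3, DESeq2 called 1 member (7.14% of all genes), limma voom 3 (17.7%), the fit without Space replicate 4 and Ground replicates 5 and 6 1 (8.55%), and a threshold of 0.1 1 (8.03%). DESeq2 also called 1 member between Space and Ground pups of replicates 4 to 6 (1.39%). The interaction of Space pups gave 6 calls with limma voom (11.3% of all genes) and 6 without those 3 libraries (5.49%); without them Ground pups of replicates 4 to 6 are 1 liver, taken to vary like the other groups. At a threshold of 0.01 the calls were 2 and 3 in Space and Ground pups of replicates 4 to 6 (3.61% and 5.78% of all genes) and 1 and 2 in the interactions (0.936% and 0.472%). Without each library in turn the calls ran from 2 to 5 in Space pups of replicates 4 to 6, from 1 to 4 in the interaction of Space pups and from 2 to 4 in that of Ground pups.

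Replicate numbers did not pair the livers: over 18 same-numbered pairs the correlation of deviations was -0.601 to 0.251, with a median of -0.04, and 3 were over 0.1. With the number as a replicate block, 2 members were called in Space pups of replicates 4 to 6 (7.03% of all genes) and 2 in the interaction of Ground pups (1.09%). The members' calls lost with it were those of Hsd3b2 (adjusted p = 0.0706) and Akr1d1 (0.0852) in Space pups and of Srd5a1 (0.0628) in Ground pups of replicates 4 to 6. Lost too were those of Akr1d1 in the interactions of Space (0.0533) and Ground pups (0.0646) and of Cyp17a1 in that of Ground pups (0.0543). Among the other genes named, it also ended calls of Nr0b2 between Space and Ground pups (0.111) and of Hsd17b6 and Cyb5r3 in Space pups (0.0862 and 0.0650), Hsd3b1 and Ghr in Ground pups (0.0602 and 0.0727) and Cyp4a14 in Space and Elovl2 in Ground pups of replicates 1 to 3 (0.0635 and 0.0982). Calls of Cyb5r3 and Sox9 in Ground pups (0.0714 and 0.0835) and of Clec4f and Lrat in Space pups (0.0750 and 0.104) of replicates 4 to 6 were lost as well. The contrasts between the sets cannot be fitted with it.

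Changes of sign were all in members without a call by the test as reported, and 1 of the changed values was itself called, Hsd17b2 between the sets of Ground pups with total counts (log2 change -0.32, adjusted p = 0.0469). Total counts also gave -0.14 for Hsd3b5 and -0.22 for Hsd17b2 in Space pups of replicates 4 to 6 and -0.12 for Hsd17b2 between the sets of Space pups. It gave -0.0049, -0.062, -0.0090 and -0.014 for Hsd3b2, Srd5a1, Akr1c6 and Cyp17a1 in Ground pups of replicates 1 to 3. Between Space and Ground pups it gave -0.0044 for Hsd3b3 in replicates 1 to 3, 0.021 for Akr1c6 in replicates 4 to 6 and 0.11 for the interaction of Akr1d1. Limma voom gave 0.0044 for Hsd3b5 in Ground pups of replicates 4 to 6, -0.021 and -0.026 for Akr1c6 and Cyp17a1 in Ground pups of replicates 1 to 3, and -0.20 for Hsd3b3 between Space and Ground pups of replicates 4 to 6. Its interactions were 0.24 for Hsd3b5 in Space pups, 0.049 for Hsd17b2 in Ground pups, and -0.31 for Hsd3b3 and -0.069 for Hsd17b2 between them. The replicate block gave interactions of 0.11 for Hsd3b5 and 0.0058 for Hsd17b2 in Space pups. Without Space replicate 4 and Ground replicates 5 and 6 it was -0.26 for Hsd17b2 between the sets of Ground pups, 0.26 for Akr1c6 and 0.039 for Cyp17a1 between Space and Ground pups of replicates 4 to 6, and 0.063 for the interaction of Akr1d1 between them.

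Leaving out 1 library crossed 0 in 24 of the members' 120 log2 changes, with these lowest and highest values. In Ground pups of replicates 1 to 3 they were -0.019 to 0.28 for Hsd3b5, -0.011 to 0.14 for Hsd3b2, -0.10 to 0.12 for Srd5a1, -0.082 to 0.13 for Akr1c6 and -0.22 to 0.18 for Cyp17a1, and in Space pups -0.29 to 0.078 for Elovl3. In replicates 4 to 6 they were -0.12 to 0.87 for Hsd3b5 and -0.24 to 0.13 for Srd5a1 in Space pups, and -0.74 to 0.25 for Hsd3b5 and -0.28 to 0.0058 for Hsd17b2 in Ground pups. Between Space and Ground pups they were -0.032 to 0.16 for Akr1d1 and -0.10 to 0.026 for Cyp4a12a in replicates 1 to 3, and -0.19 to 0.039 for Hsd3b2, -0.22 to 0.20 for Hsd3b3, -0.28 to 0.13 for Akr1c6 and -0.23 to 0.082 for Cyp17a1 in replicates 4 to 6. The interactions ran from -0.42 to 0.57 for Hsd3b5 and from -0.10 to 0.098 for Hsd17b2 in Space pups and from -0.92 to 0.073 and from -0.18 to 0.10 for the same genes in Ground pups. Between Space and Ground pups they ran from -0.27 to 0.15 for Hsd3b3, -0.11 to 0.17 for Hsd17b2 and -0.11 to 0.080 for Akr1d1. Between the sets of Ground pups Akr1c6 ran from -0.37 to 0.029.

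The numbers of all genes called moved with the setting too: from 201 to 2369 and from 35 to 1097 for Space and Ground pups against BDF1 mice of replicates 1 to 3, and from 570 to 4978 and from 895 to 6136 in replicates 4 to 6; Space and Ground pups differed by 0 to 483 genes in replicates 1 to 3 and by 0 to 137 in replicates 4 to 6.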
